A study of Bos taurus with 92 samples.

Results

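Blastocysts produced by artificial insemination (AI) were compared with the donor cells of the same study, the only samples that were not embryos. The members were chosen by their labels alone: 14 samples with the type AI and 2 samples with the type Donor Cells, together 16 of the 46 samples. The donor cells are numbered 8 and 9, and a keyword ties them to nuclear transfer (NT), in which the nucleus of a somatic cell is placed in an oocyte. The labels state neither the tissue the donor cells came from nor how they were kept. The other samples were 15 blastocysts from in vitro fertilisation (IVF) and 15 from NT, and all material was bovine. Each AI sample was a single blastocyst, and 3 of the 14 carry labels that begin with H (H1, H3 and H5) without explanation. No breed, age, sex or treatment is given for any group, and nothing states whether donor cells 8 and 9 came from separate animals or cultures. The p-values rest on a spread pooled over all 46 samples, most of it between embryos, and part of it may be technical. They assume that the 2 donor cell samples vary like the embryos.

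A blastocyst is a hollow embryo of a few cell types. Its outer layer, the trophectoderm, is an epithelium sealed by tight junctions, which pumps sodium ions inwards and draws water after them to fill the cavity, and which later forms the placenta. The inner cell mass forms the body and, on its surface, the primitive endoderm. Connective tissue cells such as fibroblasts have no such seal. They lie in a matrix of collagens and proteoglycans that they secrete, carry the intermediate filament vimentin in place of keratins, and pull on the matrix through integrins and actin.

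All values are log2 ratios of a sample to one reference RNA on a custom cDNA microarray, so they compare samples for 1 gene and do not compare genes with each other. Every sample was measured on 2 arrays with the dyes exchanged. The sources do not state which dye is the numerator. Cy5 over Cy3 was taken as the likely reading, under which the epithelial genes described here were higher in embryos and collagen genes lower. The opposite reading would turn every sign. The 2 arrays of a sample were turned the same way and their duplicate spots averaged. They then correlated over probes with r between 0.577 and 0.763 in AI blastocysts and with r of 0.301 and 0.395 in donor cells. The averaged profiles of donor cells 8 and 9 correlated with r = 0.727 over genes, those of AI blastocysts in pairs with a median r of 0.79, and AI blastocysts with donor cells with r between 0.081 and 0.157. These are descriptions over genes that share the reference RNA, and the number of arrays, above all the 2 donor cell samples, limits the precision.

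Of 4398 genes tested, 1627 (37.0%) differed between AI blastocysts and donor cells at an adjusted p under 0.05 in a limma model of all 46 samples, with Benjamini-Hochberg adjustment. They divided into 898 genes higher in AI blastocysts (20.4%) and 729 lower (16.6%). The difference was at least 2-fold for 1196 genes (27.2%) and at least 16-fold for 63 (1.43%), of which 27 were higher and 36 lower in AI blastocysts. In 1390 genes (31.6%) the 14 AI blastocysts did not overlap with either donor cell sample, all lying above both in 757 (17.2%) and below both in 633 (14.4%). The median difference over all genes was 0.002 after each array had been centred on its median. Without that centring it was -0.20, and the calls divided into 472 genes higher and 691 lower, 40.6% higher in place of 55.2%. On the arrays that carried the sample in Cy5 (the Cy5 orientation) alone, 43.8% of calls were higher, and on those that carried it in Cy3 (the Cy3 orientation) alone, 65.5%, so the division between higher and lower genes rests on the scale and the dye. Over the 7992 probes, which include those without a gene name, 2636 passed (33.0%), of which 1386 were higher (17.3%) and 1250 lower (15.6%), 2057 at least 2-fold (25.7%) and 125 at least 16-fold (1.56%).

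**Figure D1:**
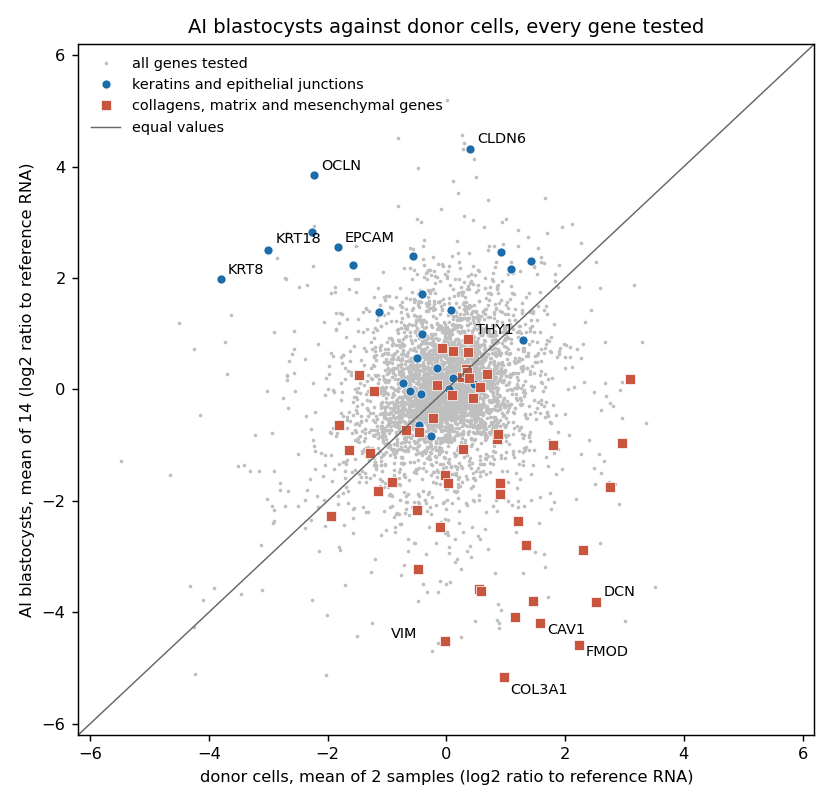
Mean log2 ratio to the reference RNA of every gene tested, in 14 AI blastocysts (vertical axis) and 2 donor cell samples (horizontal axis). Keratin and epithelial junction genes (blue circles) lie mostly above the line of equal values and matrix and mesenchymal genes (red squares) mostly below it, while THY1, with a difference of 0.53, lies near the line.

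Marker genes of 2 lineages were compared between the groups. Since the reading of the ratios rests in part on keratin, junction and collagen genes, the directions of these markers are a description and do not check the labels. Of 22 trophectoderm markers 17 were measured, of which 10 were higher in AI blastocysts and 1 was lower (58.8% and 5.88%, against 20.4% and 16.6% of all genes), with a median log2 difference of 1.58 against 0.002 over all genes. The mean of the 17 lay between 1.36 and 2.14 in AI blastocysts, against -0.34 and -0.16 in donor cells 8 and 9. Of 24 fibroblast markers 12 were measured, of which 8 were lower in AI blastocysts and 1 higher (66.7% and 8.33%, against 16.6% and 20.4% of all genes), with a median of -4.31. Their mean lay between -2.48 and -2.12 in AI blastocysts, against 0.84 and 0.86 in donor cells. The single higher fibroblast marker was THY1, a surface glycoprotein, whose call was lost without centring, in either orientation alone and without either donor cell sample. Fibroblast markers are shared by other connective tissue cells.

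The genes with the largest rise in AI blastocysts included those of tight junctions and keratin filaments. OCLN encodes occludin, a strand protein of the tight junction, and lay between 3.41 and 4.32 in the 14 AI blastocysts (median 3.82), against -2.11 and -2.36 in donor cells 8 and 9. The log2 difference was 6.08 (SE 0.22, adjusted p = 7.24e-27), a 67.4-fold rise and the largest measured. KRT8 and KRT18 encode the partner keratins of simple epithelia. KRT8 lay between 1.32 and 2.54 in AI blastocysts (median 1.96), against -3.45 and -4.15 in donor cells (54.7-fold, adjusted p = 1.66e-21). KRT18 lay between 1.61 and 3.33 in AI blastocysts (median 2.60), against -3.10 and -2.91 in donor cells (45.4-fold, adjusted p = 5.53e-19). The 3 KRT18 probes differed in size, with log2 differences between 0.91 and 7.70. KRT19, the third keratin measured, also rose, by 2.96 on the log2 scale (adjusted p = 8.45e-11). None of the 4 genes overlapped between AI blastocysts and donor cells, which for the largest rises was a condition of their choice. In whole embryos and cell samples, fewer cells of a type and less RNA per cell cannot be told apart.

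Among 23 epithelial junction genes measured, 12 rose in AI blastocysts and none fell in the limma test (1 was lower at an unadjusted p under 0.05), 52.2% higher against 20.4% of all genes, and the median difference was 1.06. EPCAM, an adhesion molecule of epithelial cells, lay between 1.73 and 3.06 in AI blastocysts (median 2.56), against -1.77 and -1.90 in donor cells, a 20.8-fold rise (adjusted p = 1.23e-18). CLDN6, a claudin of early embryonic epithelia, lay between 3.89 and 4.73 in AI blastocysts (median 4.25), against 0.40 and 0.39 in donor cells (15.2-fold, adjusted p = 1.35e-20). ESRP1, which directs epithelial splicing, lay between 2.34 and 3.50 in AI blastocysts (median 2.76), against -2.84 and -1.68 in donor cells (34.0-fold, adjusted p = 5.93e-22). All 3 genes kept every AI blastocyst above both donor cell samples. The desmosomal cadherin DSC2 lay between 1.17 and 3.33 in AI blastocysts (median 2.26), against -2.52 and -0.63 in donor cells (13.9-fold, adjusted p = 1.58e-06), so the donor cell samples stood further apart from each other than in the genes above. The 11 junction genes that did not pass lay between -0.58 (CRB3) and 1.06 (CTNND1). Among these 11 was the cadherin gene CDH1, at 0.88, all 3 named after their values were seen.

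Of 6 genes for water and ion transport into the cavity, 3 rose and none fell in the limma test (50.0% higher, against 20.4% of all genes), where 1 was lower at an unadjusted p under 0.05. AQP3, a channel for water and glycerol, lay between 4.14 and 5.17 in AI blastocysts (median 4.49), against -0.88 and -0.74 in donor cells, a rise of 5.31 on the log2 scale (39.7-fold, adjusted p = 2.05e-22). The water channel AQP11 rose 2.08-fold (adjusted p = 0.00269), a call lost without centring and without donor cells 8. The sodium pump needs a beta subunit to reach the membrane. Its beta 3 subunit, ATP1B3, lay between 1.38 and 2.55 in AI blastocysts (median 2.11), against -0.19 and -0.49 in donor cells (5.39-fold, adjusted p = 4.32e-11). The beta 1 subunit, ATP1B1, lay between -1.38 and 0.056 in AI blastocysts (median -0.38), on both sides of the donor cells at -0.35 and -0.36 (log2 difference -0.17, adjusted p = 0.755). AQP1, at a difference of -0.44, did not pass either (adjusted p = 0.0898).

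Secreted products of the ruminant trophoblast were represented by 14 genes, of which 5 were higher in AI blastocysts, 1 was lower (35.7% and 7.14%, against 20.4% and 16.6% of all genes) and 8 did not pass, with a median difference of 0.46. SSLP1, a secreted protein of the Ly-6 family, lay between 1.54 and 4.64 in AI blastocysts (median 3.23), against -0.61 and -0.38 in donor cells (11.7-fold, adjusted p = 0.000113). PAG12 and PAG11 belong to the pregnancy-associated glycoproteins, a large ruminant family related to aspartic proteases. PAG12 lay between 1.75 and 3.26 in AI blastocysts (median 2.46), against -0.47 and -0.65 in donor cells (8.5-fold, adjusted p = 0.000157). PAG11 lay between 1.43 and 2.64 in AI blastocysts (median 2.07), against -0.26 and 0.27 in donor cells (4.0-fold, adjusted p = 7.45e-05). In all 3 genes the groups did not overlap, yet cDNA of one family member can bind the spot of another, so the members cannot be fully told apart. The other 2 that rose, named after their values were seen, were PAG17 and PAG10, at 1.69 and 1.50, both lost in the Cy3 orientation alone and without either donor cell sample.

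Several trophoblast products did not pass. TKDP1, a Kunitz domain protein of the trophoblast, lay between 0.45 and 4.14 in AI blastocysts (median 1.82), against 0.55 and 0.54 in donor cells. The AI blastocysts spread widely (SD 1.20, n = 14), and the difference of 1.58 did not pass (SE 0.748, limma adjusted p = 0.0936), although it passed in the Cy5 orientation alone. Its relative TKDP4 had a difference of 0.10 (adjusted p = 0.875), and PAG8 one of 0.068 (adjusted p = 0.858). PRP6, a prolactin-related protein gene, was the one lower member, at -0.92 (adjusted p = 0.000205), a call lost in the Cy3 orientation alone. In the Cy3 orientation alone 3 of the 14 were higher, and without donor cells 8 or donor cells 9, 3 were higher and 1 lower.

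Of 8 enzymes and carriers of prostaglandin and steroid synthesis 4 were higher in AI blastocysts and 1 lower (50.0% and 12.5%, against 20.4% and 16.6% of all genes), and the lower one, FDX1, lost its call without donor cells 9. PTGS2, the inducible cyclooxygenase that starts prostaglandin synthesis, lay between 4.49 and 6.08 in AI blastocysts (median 5.14), against -0.98 and 0.33 in donor cells, a 43.4-fold rise (log2 difference 5.44, SE 0.267, adjusted p = 3.13e-22). AKR1B1, an aldo-keto reductase that can act as a prostaglandin F synthase in cattle, rose 4.69-fold (adjusted p = 2.02e-05). HSD3B1, which makes progesterone, lay between -3.84 and 0.25 in AI blastocysts (median -1.42), against -4.27 and -5.05 in donor cells (8.71-fold, adjusted p = 0.00012). CYP19A1, the aromatase, had a difference of -0.38 and did not pass (adjusted p = 0.365). HSD3B1 and CYP19A1 also mark cumulus and granulosa cells, and TNFAIP6, another gene of those cells, was lower in AI blastocysts, at -2.81 (adjusted p = 7.52e-08). The part of such cells in the HSD3B1 value was not tested.

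Of 12 measured transcription factors of the trophectoderm, 4 were higher in AI blastocysts and 1 was lower (33.3% and 8.33%, against 20.4% and 16.6% of all genes), with a median difference of 0.22. TFAP2C, an AP-2 factor of trophoblast and germ cells, lay between 2.20 and 3.61 in AI blastocysts (median 2.97), against 0.98 and 0.91 in donor cells (4.15-fold, adjusted p = 6.89e-07). Its relative TFAP2A went the other way: it lay between -0.56 and 1.53 in AI blastocysts (median 0.59), all below donor cells at 2.20 and 1.54 (log2 difference -1.29, adjusted p = 0.0229). That call was lost without donor cells 8 and without donor cells 9. GATA2 rose by 0.99 (adjusted p = 0.000209), but its 4 probes lay between -0.33 and 3.96 and disagreed in sign. The 7 factors that did not pass lay between -0.77 (GATA3) and 0.46 (DLX3). Among these 7, HAND1 lay at -0.10 and TEAD4 at 0.21, all 4 named after their values were seen. MSX2 and ID2 rose by 0.88 and 0.95 (adjusted p = 0.00499 and 0.0072), both calls lost without centring and without donor cells 8. Without centring 2 of the 12 were higher and 1 lower, and without donor cells 8, 2 were higher.

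Few genes of the inner cell mass and the primitive endoderm were measured. SPIC, an Ets factor expressed in early embryos of mice, lay between 0.33 and 5.32 in the 12 AI blastocysts with a value (median 3.22), against 1.37 and -0.76 in donor cells. Of these, 11 lay above both donor cell samples and 1 below donor cells 8, so the groups overlapped, and the difference of 2.81 (limma adjusted p = 0.00218) lost its call without donor cells 9. KLF4, a factor of pluripotent and of differentiated cells, was 2.44-fold lower (adjusted p = 0.00477), a call lost without donor cells 8 and in the Cy3 orientation alone. SALL4 had a difference of -0.34 (adjusted p = 0.23), with 2 probes at -1.28 and 0.60, and STAT3 one of -0.86 (adjusted p = 0.1), which passed in the Cy5 orientation alone. Of 9 primitive endoderm genes 1 rose and 2 fell (11.1% and 22.2%, against 20.4% and 16.6% of all genes). The collagen IV chain gene COL4A1 rose by 1.09 (adjusted p = 0.00206), while the laminin chain genes LAMB1 and LAMC1 fell by 2.15 and 1.52 on the log2 scale (adjusted p = 1.01e-06 and 8.75e-06). The COL4A1 call was lost without centring and without donor cells 9, and the 2 LAMC1 probes gave -3.17 and 0.13. These basement membrane genes are also made by connective tissue cells.

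Other genes among the 14 largest rises have roles outside these lists. ENPEP, glutamyl aminopeptidase on the cell surface, lay between 3.97 and 6.04 in AI blastocysts (median 5.27), against 0.009 and -0.004 in donor cells (36.8-fold, adjusted p = 7.38e-19). HKDC1, a hexokinase relative, lay between 0.42 and 1.81 in AI blastocysts (median 1.33), against -4.74 and -4.27 in donor cells (51.6-fold, adjusted p = 3e-11). PALB2, the partner of BRCA2 in DNA repair, rose 31.3-fold, the RNA-binding protein gene RBM47 26.3-fold and TDRP 37.2-fold. LOC780876, which has no other name in the files, rose 45.2-fold. In each of the 14 genes all AI blastocysts lay above both donor cell samples, which was a condition of their choice.

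CD48, a surface ligand known from leukocytes, lay between 2.23 and 3.64 in AI blastocysts (median 2.97), against -1.94 and -2.52 in donor cells (35.7-fold, adjusted p = 9.76e-19). Of 11 measured leukocyte markers out of 30 listed, 1 was higher and 1 lower (9.09% each, against 20.4% and 16.6% of all genes). CORO1A was higher by 1.05 and LAPTM5 lower at -1.52, a call lost in the Cy5 orientation alone. The T cell receptor complex genes CD3D and CD3E, at -0.67 and -0.72, did not pass. The mean of the 11 lay between -1.24 and -0.70 in AI blastocysts, against -0.78 and -0.76 in donor cells, which lie within that range. Whether leukocytes contributed to the CD48 value was not tested.

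**Figure D2:**
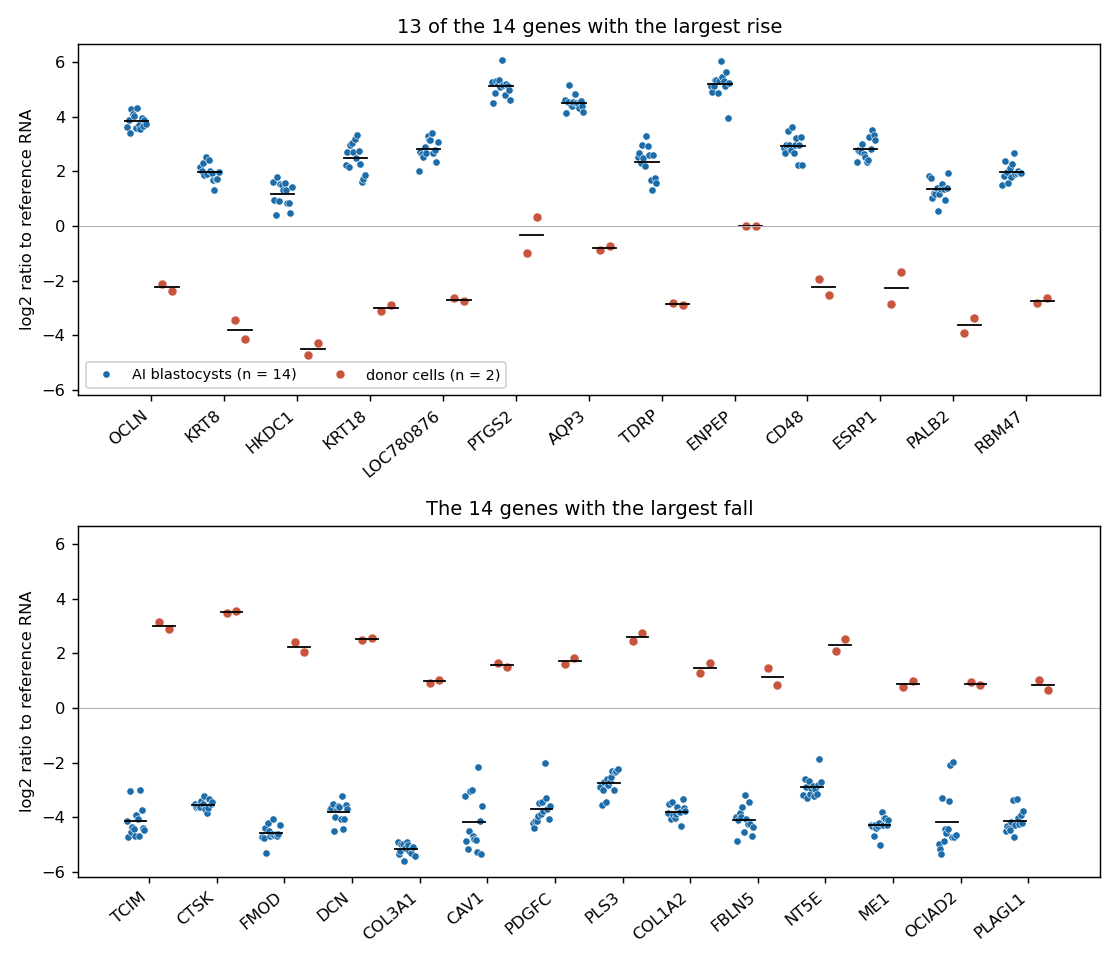
Log2 ratio to the reference RNA in every AI blastocyst (blue, left of each pair) and both donor cell samples (red, right) for 13 of the 14 genes with the largest rise and the 14 with the largest fall; black bars are means. No gene overlaps between the groups, which was a condition of their choice. CAV1 (SD 1.01) and OCIAD2 (SD 1.08) are the most spread among AI blastocysts in the lower panel.

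The genes with the largest fall included many of connective tissue. TCIM, a small regulator of Wnt signalling, lay between -4.74 and -3.01 in AI blastocysts (median -4.37), against 3.14 and 2.89 in donor cells, a 144-fold fall (adjusted p = 3.85e-14) and the largest measured. CTSK encodes cathepsin K, a protease that cleaves collagen. It lay between -3.83 and -3.22 in AI blastocysts (median -3.56), against 3.48 and 3.55 in donor cells (133-fold lower, adjusted p = 9.64e-19). NT5E, the ecto-nucleotidase CD73 of stromal cells, lay between -3.29 and -1.86 in AI blastocysts (median -2.92), against 2.10 and 2.51 in donor cells (36.5-fold lower, adjusted p = 1.55e-15). PDGFC, a growth factor for mesenchymal cells, was 43.3-fold lower and the actin-bundling gene PLS3 40.5-fold lower. All AI blastocysts lay below both donor cell samples in each of the 14 genes, which was a condition of their choice.

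Collagen and matrix genes did not move as one block. Of 26 measured, 12 fell and 1 rose, 46.2% lower against 16.6% of all genes, with a median difference of -0.56, and 11 to 13 fell under every setting that changed the scale, the dye or the donor cell samples. COL3A1 and COL1A2 encode chains of the fibrillar collagens III and I. COL3A1 lay between -5.61 and -4.89 in AI blastocysts (median -5.12), against 0.92 and 1.03 in donor cells (70.6-fold lower, SE of the log2 difference 0.24, adjusted p = 1e-25). COL1A2 lay between -4.34 and -3.33 in AI blastocysts (median -3.81), against 1.26 and 1.66 in donor cells (38.2-fold lower, adjusted p = 4.78e-24). Small proteoglycans that coat collagen fibrils fell too. FMOD, fibromodulin, lay between -5.30 and -4.06 in AI blastocysts (median -4.62), against 2.42 and 2.03 in donor cells (112-fold lower, adjusted p = 2.01e-21). DCN, decorin, lay between -4.50 and -3.23 in AI blastocysts (median -3.70), against 2.48 and 2.57 in donor cells (80.8-fold lower, adjusted p = 1.88e-22). FBLN5, which helps to build elastic fibres, was 37.8-fold lower, and SPARC, a collagen-binding glycoprotein, 22.8-fold lower.

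The matrix gene FN1, fibronectin, did not pass. It lay between -0.64 and 0.58 in AI blastocysts (median 0.37), across donor cells at 0.26 and 0.50 (log2 difference -0.18, SE 0.305, adjusted p = 0.707). The one matrix gene that rose, named after its value was seen, was the fibulin gene FBLN2, at 1.74. HSPG2, on the adhesion list, encodes the basement membrane proteoglycan perlecan and was higher too, between -0.41 and 0.76 in AI blastocysts (median 0.30), against -0.80 and -1.20 in donor cells (2.44-fold, adjusted p = 1.79e-05).

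Among mesenchymal genes other than matrix, of 24 measured, 15 fell and 2 rose (62.5% and 8.33%, against 16.6% and 20.4% of all genes), with a median difference of -1.69. VIM, the vimentin gene, lay between -4.81 and -4.10 in AI blastocysts (median -4.55), against -0.12 and 0.057 in donor cells (22.5-fold lower, SE 0.181, adjusted p = 2.66e-25). CAV1, the scaffold of caveolae, lay between -5.34 and -2.17 in AI blastocysts (median -4.60), against 1.65 and 1.50 in donor cells (54.4-fold lower, adjusted p = 1.06e-13). CCL2, a chemokine that draws monocytes, was 18.3-fold lower, the gelatinase gene MMP2 17.6-fold lower and the Wnt pathway modulator gene DKK3 17.5-fold lower. TIMP1, an inhibitor of matrix proteases, lay between -2.82 and -1.80 in AI blastocysts (median -2.26), against -1.76 and -2.14 in donor cells, and did not pass (log2 difference -0.32, adjusted p = 0.439). LGALS1, a galectin, had a difference of 0.82 and did not pass (adjusted p = 0.0803).

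Of 30 actin and contractile genes, 7 fell and 8 rose (23.3% and 26.7%, against 16.6% and 20.4% of all genes), with a median difference of -0.054, and 5 rose in the Cy5 orientation alone or without either donor cell sample. FHL1, a LIM domain protein of stress fibres, lay between -4.76 and -4.12 in AI blastocysts (median -4.45), against 0.082 and 0.42 in donor cells (26.0-fold lower, adjusted p = 4.89e-24). The tropomyosin gene TPM1 was 11.4-fold lower (adjusted p = 1.1e-09) and the transgelin gene TAGLN 2.43-fold lower (adjusted p = 3.46e-05). The related TAGLN2 went the other way: it lay between 0.31 and 1.09 in AI blastocysts (median 0.84), against -1.43 and -1.35 in donor cells (4.36-fold higher, adjusted p = 1.37e-09). PDLIM1, another actin-associated gene, rose 3.65-fold (adjusted p = 4.77e-09). Of 14 integrin and adhesion genes 5 fell and 2 rose (35.7% and 14.3%, against 16.6% and 20.4% of all genes), with the integrin chain genes ITGB1, ITGAV and ITGB5 4.16-fold, 3.62-fold and 1.85-fold lower (adjusted p = 2.27e-07, 0.000116 and 0.00015), while without donor cells 9 only 3 of the list fell and 1 rose.

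Immediate early genes, which switch on within minutes of growth factors, and YAP targets, which follow tension, numbered 21, of which 8 fell and 2 rose (38.1% and 9.52%, against 16.6% and 20.4% of all genes). The median difference was -0.25, and 11 did not pass, among them JUN and JUNB at -0.014 and -0.093. The 2 that rose were FOSB, at 1.99, and GADD45B, at 0.87, all 4 named after their values were seen. EGR1 lay between -4.12 and -0.42 in AI blastocysts (median -1.78), against 2.30 and 2.08 in donor cells (18.0-fold lower, adjusted p = 2.77e-06). FOS lay between -3.64 and 1.08 in AI blastocysts (median -1.37), against 2.51 and 2.62 in donor cells (13.3-fold lower, adjusted p = 3.78e-06). Both genes varied widely between AI blastocysts, with SDs of 1.23 and 1.31 (n = 14), and still did not overlap with the donor cells. The receptor tyrosine kinase gene AXL varied less (SD 0.38) and was 10.7-fold lower (adjusted p = 6.26e-16), and FOSL2 was 2.33-fold lower (adjusted p = 3.1e-05).

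**Figure D3:**
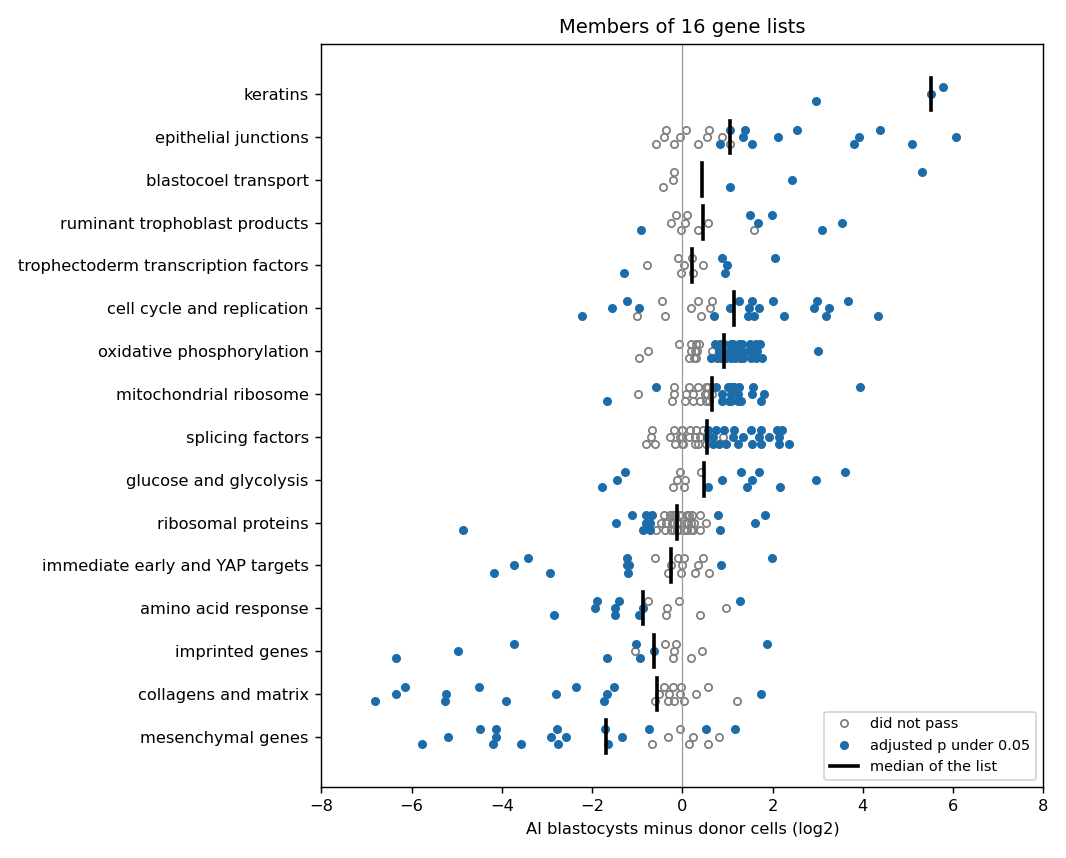
Difference between AI blastocysts and donor cells (log2, horizontal axis) for each measured member of 16 gene lists; filled points passed an adjusted p under 0.05, open points did not, and black bars are list medians. The keratin bar stands at 5.50, the oxidative phosphorylation bar at 0.92 and the mesenchymal bar at -1.69, while points of the ribosomal protein list lie on both sides of 0.

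Genes of the cell cycle and of DNA replication numbered 28, of which 16 rose and 4 fell, 57.1% higher against 20.4% of all genes, with a median of 1.16. CDC20, the activator of the anaphase-promoting complex, lay between 0.91 and 2.56 in AI blastocysts (median 1.97), against -2.61 and -2.37 in donor cells (20.2-fold, adjusted p = 5.95e-16). MCM4, a subunit of the replicative helicase, lay between -0.96 and 0.16 in AI blastocysts (median -0.65), against -4.16 and -4.13 in donor cells (12.8-fold, adjusted p = 2.1e-15). The spindle genes TPX2 and CDCA8 rose 7.91-fold and 7.61-fold (adjusted p = 1.34e-09 and 1.69e-12). CDKN1A, the p21 inhibitor of cell cycle kinases, was one of the 4 that fell, at -2.22, and was named after its value was seen. Between 12 and 17 genes of the list rose and 3 or 4 fell without centring, in either orientation alone and without either donor cell sample.

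Of 47 genes of oxidative phosphorylation 33 rose and none fell in the limma test (2 were lower at an unadjusted p under 0.05), 70.2% higher against 20.4% of all genes, with a median of 0.92. COX7A2, a subunit of cytochrome c oxidase, lay between 0.90 and 1.54 in AI blastocysts (median 1.23), against -1.75 and -1.88 in donor cells (8.04-fold, adjusted p = 6.26e-16). ATP5F1B, the catalytic beta subunit of ATP synthase, lay between 0.81 and 1.51 in AI blastocysts (median 1.21), against -0.32 and -0.55 in donor cells (3.09-fold, adjusted p = 3.53e-09). UQCRC2 and UQCRC1 of complex III rose 3.29-fold and 2.84-fold. The size of the list's call depended on the scale: 17 genes rose without centring, 19 rose in the Cy5 orientation alone, and 24 and 21 rose without donor cells 8 and 9. Of 39 mitochondrial ribosome genes 19 rose and 2 fell (48.7% and 5.13%, against 20.4% and 16.6% of all genes). The numbers were 6 and 1 without centring, 8 and 2 in the Cy5 orientation alone and 11 and 1 without donor cells 9. MRPL48 had the largest rise in that list, between 0.48 and 1.78 in AI blastocysts (median 1.04), against -1.96 and -3.83 in donor cells (15.2-fold, adjusted p = 1.29e-12), and MRPS18A fell by 1.66 on the log2 scale (adjusted p = 4.27e-06).

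Both glucose transporter genes named by the rule rose. SLC2A1, the GLUT1 transporter, lay between 0.33 and 1.80 in AI blastocysts (median 1.06), against -2.46 and -2.67 in donor cells (12.2-fold, adjusted p = 5.76e-12). SLC2A3, the GLUT3 transporter, lay between 1.18 and 2.71 in AI blastocysts (median 1.90), against -1.09 and -1.20 in donor cells (7.85-fold, adjusted p = 5.53e-12). Over the whole glucose list 9 of 18 genes rose and 3 fell (50.0% and 16.7%, against 20.4% and 16.6% of all genes). The numbers were 6 and 3 without centring, and 8 and 1 without donor cells 9. Among those that rose were PDHB of pyruvate dehydrogenase, 4.5-fold higher (adjusted p = 2.71e-11), and the glycolytic mutase gene PGAM1, 3.23-fold higher (adjusted p = 1.79e-07). Of 15 genes of the citrate cycle and its feeder reactions 7 rose and 1 fell (46.7% and 6.67%, against 20.4% and 16.6% of all genes). The numbers were 4 and 2 without centring and 4 and 1 without donor cells 9. The one that fell was ME1, the cytosolic malic enzyme, which lay between -5.02 and -3.80 in AI blastocysts (median -4.29), against 0.78 and 1.00 in donor cells (36.2-fold lower, adjusted p = 1.01e-12). MDH1, the cytosolic malate dehydrogenase, rose 2.44-fold (adjusted p = 0.000102), DLD 4.21-fold and the citrate synthase gene CS 2.57-fold, the last call lost without donor cells 9.

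Of 18 genes of fatty acid uptake, storage and oxidation 7 rose and 3 fell (38.9% and 16.7%, against 20.4% and 16.6% of all genes). Without centring 2 rose and 2 fell, and in the Cy5 orientation alone 3 rose and 2 fell. Without donor cells 8 the limma test called 3 rises and 0 falls, and without donor cells 9 it called 5 rises and 0 falls, with 2 genes lower at an unadjusted p under 0.05 in each case. PLIN3, a coat protein of lipid droplets, lay between 1.62 and 2.75 in AI blastocysts (median 1.90), against -0.68 and -0.32 in donor cells (5.94-fold, adjusted p = 1e-10). Of 12 genes of cholesterol and lipid synthesis 1 rose and 1 fell (8.33% each, against 20.4% and 16.6% of all genes). LSS, lanosterol synthase, was 5.08-fold lower (adjusted p = 5.87e-05) and ACLY, which makes cytosolic acetyl-CoA, 2.06-fold higher (adjusted p = 0.000433). The ACLY call was lost without centring and without donor cells 8.

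Of 46 splicing factors 23 rose and none fell in the limma test (2 were lower at an unadjusted p under 0.05), 50.0% higher against 20.4% of all genes, with a median of 0.56. Without centring 14 rose and 2 fell, in the Cy5 orientation alone 14 rose, and without donor cells 8 and 9 the numbers were 12 and 15. SRSF7, an SR protein, lay between -0.008 and 0.98 in AI blastocysts (median 0.68), against -1.99 and -1.54 in donor cells (5.12-fold, adjusted p = 2.84e-10), and SNRPD3, a core protein of spliceosomal RNPs, rose 4.66-fold (adjusted p = 2.51e-09). Of 40 ribosome assembly genes 18 rose and 5 fell (45.0% and 12.5%, against 20.4% and 16.6% of all genes). The numbers were 9 and 5 without centring, 10 and 5 in the Cy5 orientation alone and 9 and 2 without donor cells 8. GAR1, of the particles that modify ribosomal RNA, rose 6.07-fold (adjusted p = 2.7e-06) and IMP4 4.76-fold (adjusted p = 1.98e-08).

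Of 45 genes with the name of a ribosomal protein 4 rose, 9 fell (8.89% and 20.0%, against 20.4% and 16.6% of all genes) and 32 did not pass, with a median of -0.11. In the Cy3 orientation alone 6 rose and 2 fell, in the Cy5 orientation alone 3 rose and 13 fell, and without donor cells 8 or 9 the falls numbered 4 and 5. RPS9 lay between -3.59 and -2.71 in AI blastocysts (median -3.19), against 1.55 and 1.78 in donor cells (29.0-fold lower, adjusted p = 5.32e-18). RPL35 had the next lowest difference in the list, at -1.48, with 2 probes at -2.46 and -0.49, and RPS3 rose by 1.62. RPL7L1, which also rose, at 1.83, is a relative of RPL7 and not a protein of the ribosome. Ribosomal protein genes have many near-identical copies in the genome, whose transcripts cannot be told apart on a spot. Of 36 translation factors 10 were higher and 6 lower (27.8% and 16.7%, against 20.4% and 16.6% of all genes). The numbers were 1 and 4 without centring, 1 and 5 in the Cy5 orientation alone, 5 and 3 without donor cells 8 and 2 and 3 without donor cells 9. The translation start factor gene EIF1 was 2.58-fold lower (adjusted p = 9.04e-07), and EEF2K, a kinase that acts on an elongation factor, 5.21-fold lower (adjusted p = 5.52e-08). Another kinase gene on the list, EIF2AK1, was among the 10 higher, at 1.30.

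Of 54 heat shock and chaperone genes 18 rose and 5 fell (33.3% and 9.26%, against 20.4% and 16.6% of all genes). The numbers were 10 and 4 without centring and 11 and 3 in the Cy5 orientation alone. Among the 18 was HSPG2, the perlecan gene, which is on the list by its symbol and is not a chaperone. HSF1, the heat shock transcription factor, lay between 1.02 and 2.08 in AI blastocysts (median 1.33), against -1.27 and -1.34 in donor cells (6.54-fold, adjusted p = 7.23e-14). The mitochondrial co-chaperonin gene HSPE1 rose 5.31-fold (adjusted p = 2.23e-09) and CCT3, of the cytosolic chaperonin, 3.89-fold (adjusted p = 9.72e-10). Of 21 proteasome genes 8 rose and 1 fell (38.1% and 4.76%, against 20.4% and 16.6% of all genes), but without centring none rose in the limma test (1 was higher at an unadjusted p under 0.05) and 1 fell, in the Cy5 orientation alone 1 rose and 1 fell, and without donor cells 8 and 9, 5 and 3 rose. PSMB5, its catalytic beta 5 subunit, rose 2.37-fold (adjusted p = 0.00359), a call lost without centring, in the Cy5 orientation alone and without donor cells 9.

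Among chromatin genes, 7 of 40 were higher and 4 lower (17.5% and 10.0%, against 20.4% and 16.6% of all genes), and 4 and 2 without donor cells 8. HDAC1, a histone deacetylase, lay between 1.26 and 1.92 in AI blastocysts (median 1.57), against -0.74 and -1.34 in donor cells (6.25-fold, adjusted p = 4.57e-17). DNMT3A, which methylates DNA de novo, lay between 2.41 and 3.91 in the 13 AI blastocysts with a value (median 2.90), against 0.68 and 0.19 in donor cells (6.06-fold, adjusted p = 1.05e-05). Its call was lost in the Cy3 orientation alone. HAT1, a histone acetyltransferase, rose 4.42-fold (adjusted p = 1.04e-07) and HDAC7, a class IIa deacetylase, was 2.83-fold lower (adjusted p = 7.2e-06). Of 10 histone genes 4 rose and 1 fell (40.0% and 10.0%, against 20.4% and 16.6% of all genes). The numbers were 1 and 2 without centring, 1 and 1 in the Cy5 orientation alone and 2 rises without either donor cell sample. The histone variant gene H2AZ1 rose 3.54-fold (adjusted p = 6.2e-11).

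Of the imprinted genes, which are expressed from a single parental copy, 15 were measured, of which 7 fell and 1 rose, 46.7% lower against 16.6% of all genes, and 4 fell in the Cy3 orientation alone and without donor cells 8. PLAGL1, a zinc finger regulator of growth, lay between -4.71 and -3.35 in AI blastocysts (median -4.23), against 1.03 and 0.66 in donor cells (31.5-fold lower, adjusted p = 9.16e-14). SGCE, epsilon-sarcoglycan, lay between -5.23 and -4.02 in AI blastocysts (median -4.33), against 0.049 and -1.36 in donor cells (13.2-fold lower, adjusted p = 3.94e-08). IGF2R, the receptor that clears IGF2, was 1.55-fold lower (adjusted p = 0.0405), a call lost without centring, in the Cy3 orientation alone and without either donor cell sample, and its 2 probes gave -1.30 and 0.036. NAP1L4, a histone chaperone and the one that rose, was 3.7-fold higher (adjusted p = 4.14e-07). DCN, given above among the matrix genes, is also on this list, and ratios to a reference do not show which parental copy was read.

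Of 27 redox genes 7 were higher and 8 lower (25.9% and 29.6%, against 20.4% and 16.6% of all genes), and 5 lower in the Cy3 orientation alone and without donor cells 8. GSR, glutathione reductase, lay between 1.52 and 2.02 in AI blastocysts (median 1.75), against -1.40 and -1.64 in donor cells (9.62-fold, adjusted p = 2.25e-08). The peroxiredoxin genes PRDX1 and PRDX2 rose 5.86-fold and 3.73-fold (adjusted p = 8.64e-09 and 6.42e-10). GPX8, a peroxidase of the endoplasmic reticulum, lay between -4.26 and -3.34 in AI blastocysts (median -3.80), against -0.78 and -0.16 in donor cells (10.1-fold lower, adjusted p = 1.15e-17). In the amino acid response, which ATF4 drives when amino acids run short, 8 of 15 genes fell and 1 rose (53.3% and 6.67%, against 16.6% and 20.4% of all genes), with a median of -0.88, and 5 and 4 fell without donor cells 8 and 9. ATF4 itself lay between -2.05 and -0.49 in AI blastocysts (median -1.40), against 0.67 and 0.52 in donor cells (3.83-fold lower, adjusted p = 1.68e-05). PSPH, the last step of serine synthesis, was 7.18-fold lower and DDIT3, a transcription factor downstream of ATF4, 2.8-fold lower (adjusted p = 0.000828 and 0.00269).

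Of 49 lysosomal genes 13 were higher and 14 lower (26.5% and 28.6%, against 20.4% and 16.6% of all genes). The numbers were 6 and 13 without centring and 8 and 10 without donor cells 8. Besides CTSK, the protease gene LGMN was 4.84-fold lower (adjusted p = 1.09e-08). ACP5, tartrate-resistant acid phosphatase, lay between 1.13 and 1.96 in AI blastocysts (median 1.42), against -1.19 and -0.64 in donor cells (5.2-fold, adjusted p = 7.46e-14). ATP6V1A, of the proton pump that acidifies lysosomes, rose 4.92-fold (adjusted p = 4.64e-10). Among 64 solute carriers 16 rose and 5 fell (25.0% and 7.81%, against 20.4% and 16.6% of all genes). SLC1A3, a transporter of glutamate and aspartate, lay between -2.58 and -0.49 in AI blastocysts (median -1.33), against -5.48 and -5.50 in donor cells (18.5-fold, adjusted p = 2.38e-11).

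Of 11 apoptosis genes 5 rose and 1 fell (45.5% and 9.09%, against 20.4% and 16.6% of all genes), and 3 rose without donor cells 8. FADD, the adaptor of death receptors, lay between 2.66 and 4.91 in AI blastocysts (median 3.84), against 0.51 and 0.47 in donor cells (10.0-fold, adjusted p = 2.3e-06). CASP6, an effector caspase, lay between 2.70 and 3.33 in AI blastocysts (median 3.07), against 1.01 and 0.98 in donor cells (4.17-fold, adjusted p = 9.04e-09). CFLAR, a caspase-8 relative that blocks death receptor signalling, fell by 2.06 (adjusted p = 1.37e-07), but its 2 probes gave -4.27 and 0.15, so the fall rests on 1 probe. Of 20 genes of antigen presentation, interferon response and complement 7 fell and 6 rose (35.0% and 30.0%, against 16.6% and 20.4% of all genes). The numbers were 7 and 2 without centring and 5 and 3 without either donor cell sample. The complement protease genes C1S and C1R had the largest falls in the list. C1S lay between -3.17 and 0.55 in AI blastocysts (median -2.46), against 2.75 and 3.07 in donor cells (31.3-fold lower, adjusted p = 4.48e-08). C1R was 17.2-fold lower (adjusted p = 1.37e-09).

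Few markers of further cell types that either sample could hold were measured, so their calls are given gene by gene. Of 8 measured endothelial genes ERG, an Ets factor, fell by 3.85 on the log2 scale (adjusted p = 5.36e-18), while PECAM1 and KDR, at 0.81 and -0.58, did not pass and each had 2 probes of opposite sign. Of 2 measured uterine or oviduct genes SPP1, osteopontin, was 11.7-fold lower (adjusted p = 2.98e-13) and MUC1, at -0.22, did not pass. Of 2 measured erythroid genes CA2, carbonic anhydrase, was 9.91-fold lower (adjusted p = 7.2e-13) and GYPC, at 0.43, did not pass. The one sperm gene measured, ODF2, lay between -0.62 and 1.19 in AI blastocysts (median 0.021), against 0.12 and 3.06 in donor cells. Its difference of -1.46 (limma adjusted p = 0.0149) rested on donor cells 9 and was 0.02 without it. Of 2 oocyte genes, BMP6 and ZP3, neither passed in the limma test or at an unadjusted p under 0.05.

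The IVF and NT blastocysts were set against the same 2 donor cell samples, so the 3 comparisons are not independent and their values are given side by side only. Calls against donor cells numbered 1627 genes in AI (37.0%), 1508 in IVF (34.3%) and 1558 in NT (35.4%). OCLN differed from donor cells by 6.08 in AI, 6.04 in IVF and 5.73 in NT blastocysts. KRT8 differed by 5.78 in AI, 5.42 in IVF and 5.42 in NT. COL3A1 differed by -6.14 in AI, -6.16 in IVF and -6.13 in NT, and VIM by -4.49, -4.42 and -4.48 in the same order. Of the list medians, that of oxidative phosphorylation was 0.92 in AI, 0.44 in IVF and 0.95 in NT. The median of the cell cycle list was 1.16 in AI, 1.01 in IVF and 1.04 in NT, and that of the mesenchymal list -1.69, -1.61 and -1.55.

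**Figure D4:**
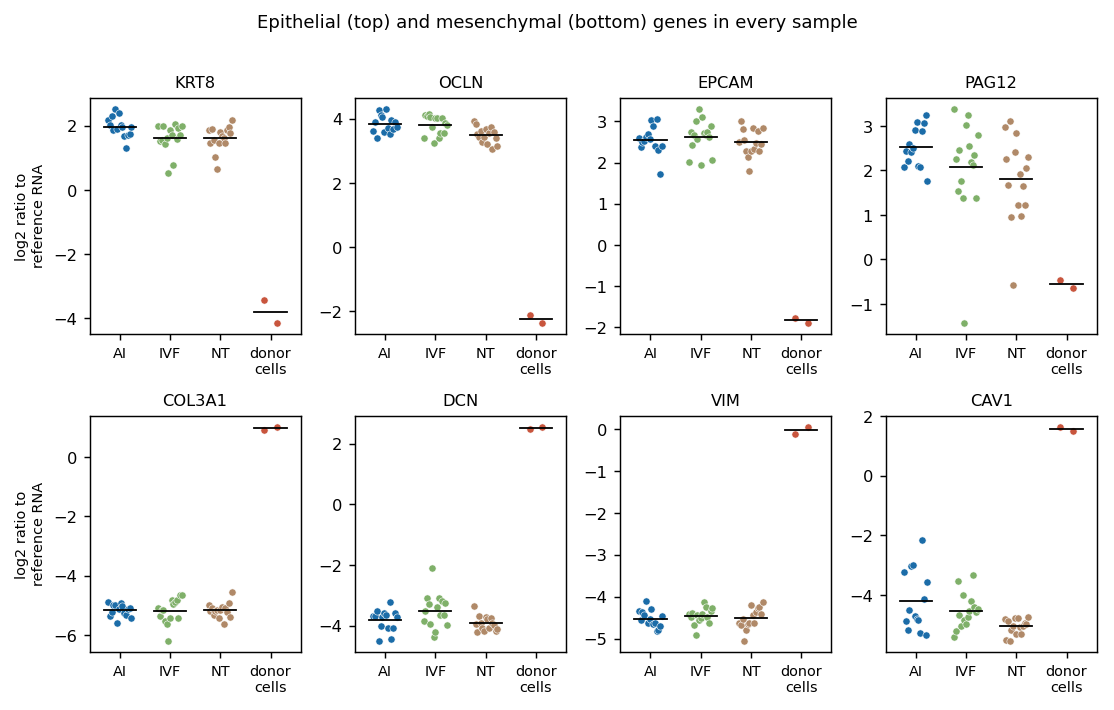
Log2 ratio to the reference RNA in every AI, IVF and NT blastocyst and both donor cell samples for 4 epithelial or trophoblast genes (top) and 4 mesenchymal genes (bottom); black bars are means. Every blastocyst lies above the donor cells in the KRT8, OCLN and EPCAM panels and below them in the bottom row, while single IVF and NT blastocysts reach the donor cells in the PAG12 panel, and the mean of COL3A1 is -5.17 in AI, -5.18 in IVF and -5.16 in NT.

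Where a value belonged to AI blastocysts in particular, the direct contrast with the other embryos tested it. Of the 1627 genes that differed from donor cells, 630 (38.7%, against 29.5% of all genes) also differed between AI and IVF blastocysts and 171 (10.5%, against 8.07%) between AI and NT blastocysts. The numbers depended on the scale: without centring they were 277 and 539. Genes that differed from IVF and from NT in the same direction numbered 97 of the 1627 (5.96%, against 4.43%). The contrast that picked the 1627 genes holds the same AI blastocysts. Shares among those genes are therefore not independent of that choice and are given as a description. The 8 described next are among the 14 with the largest direct differences, and PLPP1, CCL26, GMPR and TFDP1 were picked after their values were seen.

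OCIAD2, a mitochondrial and endosomal membrane protein gene, averaged -4.19 in AI (SD 1.08, n = 14), -2.01 in IVF and -2.21 in NT blastocysts, against 0.95 and 0.83 in donor cells. The difference of AI from IVF was -2.18 (adjusted p = 0.000115) and that from NT -1.99 (adjusted p = 0.00191). PLPP1, a lipid phosphatase, averaged -1.83 in AI, -0.38 in IVF and -0.65 in NT, against 0.049 and 0.30 in donor cells. It was called against donor cells in AI (adjusted p = 1.13e-05) and did not pass in IVF (adjusted p = 0.236) or NT (adjusted p = 0.0653), and the direct differences were -1.44 from IVF and -1.17 from NT (adjusted p = 3.35e-08 and 1.14e-05). ATF4 averaged -1.34 in AI, -0.27 in IVF and -0.23 in NT, with direct differences of -1.07 and -1.11 (adjusted p = 6.37e-06 and 2.74e-05). In these 3 genes IVF and NT means lay between those of AI blastocysts and donor cells.

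CASP6 averaged 3.06 in AI, 1.88 in IVF and 1.88 in NT, and every AI blastocyst lay above every IVF and NT blastocyst. The direct differences were 1.18 from IVF and 1.17 from NT (adjusted p = 2.18e-09 and 2.64e-08). GMPR, which converts GMP to IMP, averaged 1.67 in AI, 0.34 in IVF and 0.55 in NT, against -0.94 and -1.10 in donor cells, with direct differences of 1.32 and 1.12 (adjusted p = 7.12e-07 and 0.000115). TFDP1, the partner of E2F cell cycle factors, averaged 0.53 in AI, -0.39 in IVF and -0.27 in NT, against -1.40 and -1.48 in donor cells, with direct differences of 0.92 and 0.80 (adjusted p = 1.14e-07 and 1.14e-05). SLC1A3 averaged -1.28 in AI, -2.77 in IVF and -2.32 in NT, with direct differences of 1.49 and 1.04 (adjusted p = 5.29e-07 and 0.000811). CCL26, a chemokine for eosinophils, was nearer the donor cells in AI than in the other embryos: it averaged 0.86 in AI, -0.31 in IVF and -0.74 in NT, against 3.18 and 3.40 in donor cells. Its direct differences were 1.16 and 1.60 (adjusted p = 0.0015 and 0.0002).

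**Figure D5:**
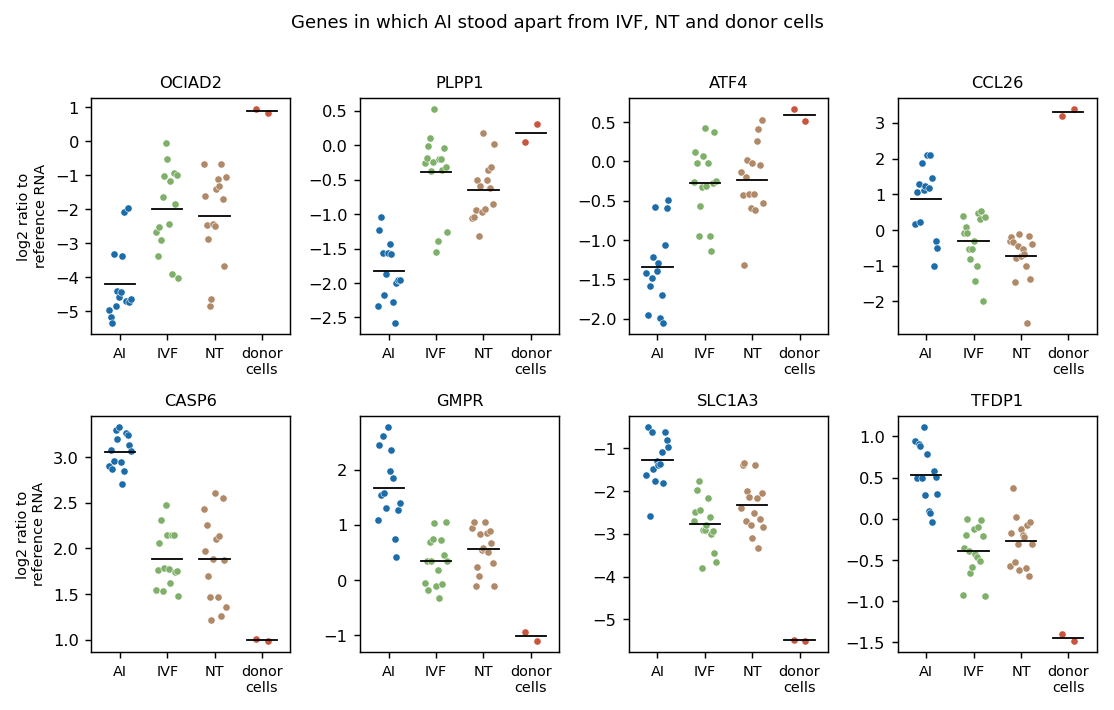
Log2 ratio to the reference RNA in every AI, IVF and NT blastocyst and both donor cell samples for 8 genes in which AI blastocysts differed from IVF, from NT and from donor cells; black bars are means, and each panel has its own vertical axis. In the CASP6 panel the lowest AI blastocyst, at 2.70, lies above all IVF and NT blastocysts.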

How the data were processed

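The deposited table holds log2 ratios of the 2 dye channels, which carried sample and reference RNA. It covers 92 arrays, 2 dye-swapped arrays for each of 46 samples, per the file headers and the labels. Per the labels' protocols, embryo and donor cell RNA went through 3 rounds of linear amplification and reference RNA through 2. The authors' normalisation, scanner software and ratio direction are not given in the sources used here, and no intensities, slides or scan dates were held, so background and batches could not be examined. The number of arrays limits the precision.

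Values above 16, a fill value in 2657 cells, were set to missing. Arrays with the sample in Cy3 had their sign turned, each array was centred on its median, duplicate spots of a probe were averaged, and the 2 arrays of a sample were averaged, both being required. Probes needed values in both donor cell samples and in at least 50% of the samples of every other group, which removed 216 of 8208. Probes of 1 gene were averaged, which left 7992 probes and 4398 genes. Of the probes, 5598 had 1 gene symbol, 95 several and 2515 none. A reference gene table matched 5591 by Entrez identifier and changed no symbol. A group-mean model of all 46 samples was fitted with limma 3.58.1 in R 4.3.3, with Benjamini-Hochberg adjustment over all genes and a threshold of 0.05. It was also run on simulated data in which donor cells were given the spread of the embryos. That run could therefore not check whether donor cells vary like embryos.

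The genes named were the 14 largest rises and 14 largest falls in which all AI blastocysts lay on the same side of both donor cell samples, the 4 members of smallest p in each of 42 lists, and a set of anchor genes; others are said to be chosen after their values were seen. Members and lists were chosen with earlier results of these data known. Some lists were filled by symbol patterns, which also caught HSPG2, RPL7L1, EEF2K, EIF2AK1 and EIF2AK4. Alternatives changed the centring, scaling, dye orientation, probes, filters, variance model and samples. One gene among the largest rises is not reported here.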

Additional observations from a re-analysis of the deposited data

Results flagged for a closer look

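Of the 158 named genes that differed between AI blastocysts and donor cells, 19 also differed, in 1 direction, from both IVF and NT blastocysts. These were direct contrasts of the same limma fit at an adjusted p under 0.05. The share was 4.43% over all genes and 5.96% among all genes that differed from donor cells. The named genes were chosen in part by their values in the same AI blastocysts, so the count is a description. The values that follow are AI minus NT on the log2 scale. The falls were largest in OCIAD2 (-1.99), the stress factor gene ATF4 (-1.11) and the laminin chain gene LAMB1 (-0.66), followed by the death receptor inhibitor gene CFLAR (-0.65), the ATF4 target DDIT3 (-0.63) and the secreted Wnt pathway modulator gene DKK3 (-0.37). In these 6 genes AI blastocysts were also lower than donor cells.

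The factor gene TFAP2A (1.42) and the integrin chain gene ITGB5 (0.64) were higher in AI than in NT blastocysts and lower than in donor cells, so AI means lay nearer the donor cells. The caspase gene CASP6 (1.17) and the glutamate transporter gene SLC1A3 (1.04) had the largest positive values among genes higher than in donor cells. Smaller ones were found in the ribosomal protein gene RPS3 (0.63), the glycolytic gene PGAM1 (0.60), the surface ligand gene CD48 (0.55), the peroxiredoxin genes PRDX1 (0.52) and PRDX2 (0.51), the lipid droplet gene PLIN3 (0.49), the factor gene ID2 (0.46), the chaperonin gene CCT3 (0.40) and the proteasome gene PSMA7 (0.37). The ID2, PSMA7, ITGB5, TFAP2A and CFLAR calls against donor cells were each lost under at least 1 setting. Whether the flagged genes kept their calls against IVF and NT under other settings was not tested. Among all genes that differed from donor cells, calls against NT numbered 171, but 539 without centring and 98 in the Cy3 orientation alone. Calls against IVF numbered 630, but 277 without centring. Of the flagged genes, DDIT3, ID2 and PRDX1 lay nearest the threshold against NT (limma adjusted p = 0.0396, 0.0358 and 0.0325).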

How the results depend on the processing

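Over the 14 settings, all 28 genes with the largest rises and falls kept their call wherever they had a value. The same held for 127 of the 158 named genes that passed, and not every named gene had a value under every setting. Without donor cells 8 and without donor cells 9, 1081 and 1067 genes passed in place of 1627, with 597 and 599 in place of 898 higher, 484 and 468 in place of 729 lower, and 1690 and 1698 in place of 2636 probes. The spread then came from the embryos alone, and the remaining donor cell sample was assumed to vary like them. Of the 1627 genes, 1030 passed without donor cells 8 and 1021 without donor cells 9. Without centring 472 genes were higher and 691 lower, and 1136 of the 1627 passed. The calls among the 1627 then numbered 277 in place of 630 against IVF and 539 in place of 171 against NT, and on arrays with the sample in Cy3 98 against NT. The causes were not tested. CFLAR turned to 0.15 with 1 probe per gene, where the probe at -4.27 was left out. ODF2 was -2.93 without donor cells 8 and 0.015 without donor cells 9. Requiring both spots of a probe, chosen after seeing the data, gave 1658 genes. No paired analysis was possible because AI and donor cell labels share only the number 8, which names different material. Signal over background could not be examined.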

Other observations

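The AI blastocysts differed most among themselves in a few of the named genes, chosen for this after their values were seen. The oocyte growth factor gene BMP6 had an SD of 1.43 over 11 blastocysts, with values between -1.70 and 2.89, against 1.50 and 0.98 in donor cells. SPIC (SD 1.39), the immediate early genes FOS (SD 1.31) and EGR1 (SD 1.23) and the trophoblast gene TKDP1 (SD 1.20) followed, with C1S at 1.10. At the other end, RPL35 had an SD of 0.12, and CTSK and GSR each one of 0.16 (n = 14).

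Some called genes of the lists, picked after their values were seen, add to the groups described. HSD17B10, a mitochondrial dehydrogenase, was higher by 2.61, and FDX1, which brings electrons to steroid-making cytochromes, fell by 1.64 on the log2 scale (limma adjusted p = 1.92e-06 and 0.00357). The FDX1 call was lost without donor cells 9. The adenine nucleotide carrier gene SLC25A5 was higher by 2.96 (adjusted p = 3.08e-10). CD59, which blocks complement on the cell surface, was higher by 1.71 (adjusted p = 0.000996), beside the falls of C1S and C1R.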
